A study of Mus musculus with 12 samples.

Results

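The 32 genes described here mark astrocytes or carry out astrocyte metabolism. They were taken by gene symbol from the 19938 genes that had a probe set with a single symbol, and each was represented by its probe set of highest mean over the 12 arrays. All 32 were found. Expression was measured in the olfactory bulb and the hippocampus of adult mice on C57BL/6, 3 of them wild type and 3 knockout for RasGRF2, an exchange factor that activates Ras and Rac. Each animal gave 1 array per tissue, so there were 4 groups of 3 arrays: wild-type hippocampus, knockout hippocampus, wild-type bulb and knockout bulb. The mice received no treatment and were housed in a conventional facility. No source used here states how the knockout allele was made, nor the sex or exact age of the mice. The RNA came from whole tissue, so each value pools astrocytes with neurons and all other cells. Wild-type arrays are numbered 1 to 3 and knockout arrays 4 to 6, as in the sample titles. The series' stated subject is RasGRF2 in adult hippocampal neurogenesis.

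Astrocytes clear glutamate from synapses and convert it to glutamine, buffer water and ions through channels at their endfeet, and are joined by gap junctions into networks. They store glycogen, run glycolysis and fatty acid metabolism, and secrete lipoproteins, protease inhibitors and signalling antagonists. Astrocytes of different brain regions express these genes at different levels, and in the olfactory bulb they lie beside ensheathing glia, which carry some of the same transcripts.

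Values are log2 intensities, so a difference of 1 is a 2-fold difference. Differences were tested with limma over all genes, and a gene is said to have risen or fallen only where its Benjamini-Hochberg adjusted p was under 0.05. Rasgrf2, the targeted gene, measured 9.32, 9.14 and 9.18 in wild-type hippocampus and 8.64, 8.76 and 8.49 in knockout hippocampus, a fall of -0.58 (SE 0.077, adjusted p = 0.00197). In the bulb it measured 9.52, 9.52 and 9.47 in wild type and 9.33, 9.35 and 9.43 in knockout, a difference of -0.14 (SE 0.077, adjusted p = 0.531). The knockout arrays lay below the wild-type arrays in both tissues, but the bulb difference did not pass. Arrays separated this way for 3.66% of all genes in hippocampus and 8.87% in bulb. No source used here says where the probes lie relative to the deleted part. The olfactory ensheathing glia marker Frzb was at 8.73 in wild-type hippocampus and 9.88 in wild-type bulb, on the side its tissue label gives. Summed as a mean over the 32 genes, the level ranged over 9.76 to 9.79 in wild-type hippocampus, 9.83 to 9.88 in knockout hippocampus, 9.76 to 9.87 in wild-type bulb and 9.82 to 9.84 in knockout bulb.

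In the hippocampus, none of the 32 astrocyte genes rose or fell in the knockout by limma (with array weights 1 did, Slc25a18). Over all genes 0.256% were called in this comparison. By the probe sets used, the main water channel, gap junction, glutamate transporter and glutamine synthesis genes all differed by less than 0.1 between genotypes. A second probe set of Glul, the glutamine synthesis gene, read -0.15 (SE 0.064), without passing. Of the 32, 6 had an unadjusted p under 0.05, against 8.91% of all genes, and all 6 were higher in the knockout: Etnppl, Slc25a18, Fgfr3, Cbs, Itih3 and Aldh1l1. The smallest adjusted p among the 32 was 0.197.

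Etnppl encodes ethanolamine-phosphate phospho-lyase, which breaks down phosphoethanolamine, an intermediate of membrane lipid synthesis. Its mean over the 12 arrays, 6.84, was the lowest of the members, at percentile 42.1 of all genes. In hippocampus it measured 5.66, 5.99 and 5.74 in wild type and 6.15, 6.57 and 6.26 in knockout. These hippocampal values all lay below the lowest array median over all probe sets, 6.82. Every knockout array lay above every wild-type array, and the difference was 0.53 (SE 0.13, adjusted p = 0.197), which did not pass. In the olfactory bulb it measured 7.51, 6.96 and 7.40 in wild type and 7.92, 8.04 and 7.93 in knockout. Again the groups did not overlap, the 3 knockout arrays lay close together, and wild-type array 2 was the lowest of the bulb arrays. The bulb difference was 0.68 (SE 0.13, adjusted p = 0.0443), a 1.60-fold rise with a 95% interval of 0.39 to 0.96. Etnppl was the single member past the threshold in the bulb, where 0.411% of all genes were called.

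That call lay close to the threshold. The adjusted p was 0.0469 without wild-type bulb array 1, 0.147 without array 2 and 0.0512 without array 3. It was 0.113, 0.179 and 0.156 without knockout bulb array 4, 5 or 6, so 5 of these 6 removals ended the call. It was 0.0875 when the bulb arrays were fitted alone, while the difference stayed between 0.51 and 0.78 in the alternatives that tested it.

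Slc25a18 encodes a mitochondrial glutamate carrier. It measured 8.99, 9.14 and 9.02 in wild-type hippocampus and 9.39, 9.36 and 9.23 in knockout hippocampus, a difference of 0.28 (SE 0.071, adjusted p = 0.200). In the bulb it measured 9.33, 9.41 and 9.43 in wild type and 9.74, 9.66 and 9.61 in knockout, a difference of 0.28 (SE 0.071, adjusted p = 0.143). The genotypes did not overlap in either tissue and the sizes matched to the second decimal, but neither difference passed. Etnppl and Slc25a18 were the 2 members of 32 whose arrays separated in the same direction in both tissues, as 1.79% of all genes did. Both tissues come from the same animals, so the tissues are not independent sets of mice.

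A window around a start site of each of these 2 genes is shown, with those of Slc1a2 and Ppp1r3c, which were higher in hippocampus than in bulb and did not pass between genotypes. They are RefSeq promoter windows of assembly GRCm38.p6, from 250 bases before to 50 bases after the annotated start, written 5′ to 3′ on the gene's strand, with matches to the E-box letters CANNTG in capitals. Etnppl lies on the plus strand at chr3:130617198-130617497, Slc25a18 on the plus strand at chr6:120773518-120773817, Slc1a2 on the plus strand at chr2:102706188-102706487 and Ppp1r3c on the minus strand at chr19:36736555-36736854.
Etnppl: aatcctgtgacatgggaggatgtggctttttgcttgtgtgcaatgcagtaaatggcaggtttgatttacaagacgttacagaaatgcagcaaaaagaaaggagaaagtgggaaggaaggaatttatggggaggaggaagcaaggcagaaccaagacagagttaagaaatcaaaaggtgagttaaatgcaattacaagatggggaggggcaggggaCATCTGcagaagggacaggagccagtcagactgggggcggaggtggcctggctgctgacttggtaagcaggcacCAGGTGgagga
Slc25a18: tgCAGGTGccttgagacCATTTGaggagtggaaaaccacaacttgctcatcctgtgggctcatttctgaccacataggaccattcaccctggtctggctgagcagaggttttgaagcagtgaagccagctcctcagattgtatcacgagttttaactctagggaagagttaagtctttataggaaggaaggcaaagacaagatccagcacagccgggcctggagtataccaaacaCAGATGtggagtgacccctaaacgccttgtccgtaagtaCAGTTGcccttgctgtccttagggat
Slc1a2: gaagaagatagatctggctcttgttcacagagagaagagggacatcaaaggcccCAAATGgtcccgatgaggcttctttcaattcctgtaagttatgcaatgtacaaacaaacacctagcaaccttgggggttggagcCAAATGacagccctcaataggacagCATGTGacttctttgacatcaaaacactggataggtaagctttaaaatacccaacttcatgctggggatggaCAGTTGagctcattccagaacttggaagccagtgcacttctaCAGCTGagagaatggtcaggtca
Ppp1r3c: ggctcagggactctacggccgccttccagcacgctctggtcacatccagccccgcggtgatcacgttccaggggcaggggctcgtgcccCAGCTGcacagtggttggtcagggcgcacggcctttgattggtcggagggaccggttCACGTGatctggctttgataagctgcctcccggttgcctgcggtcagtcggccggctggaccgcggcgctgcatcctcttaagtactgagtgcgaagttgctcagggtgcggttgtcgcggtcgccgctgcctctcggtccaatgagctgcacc
Etnppl has a second, overlapping window, not shown, with 2 matches. The shown window of Etnppl holds 2 matches, that of Slc25a18 4, that of Slc1a2 5 and that of Ppp1r3c 2. E-box letters are common: 72.3% of all 32851 windows hold at least 1 match, and 28 of the 38 windows of the members (73.7%). A match is only a match of letters.

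**Figure D1:**
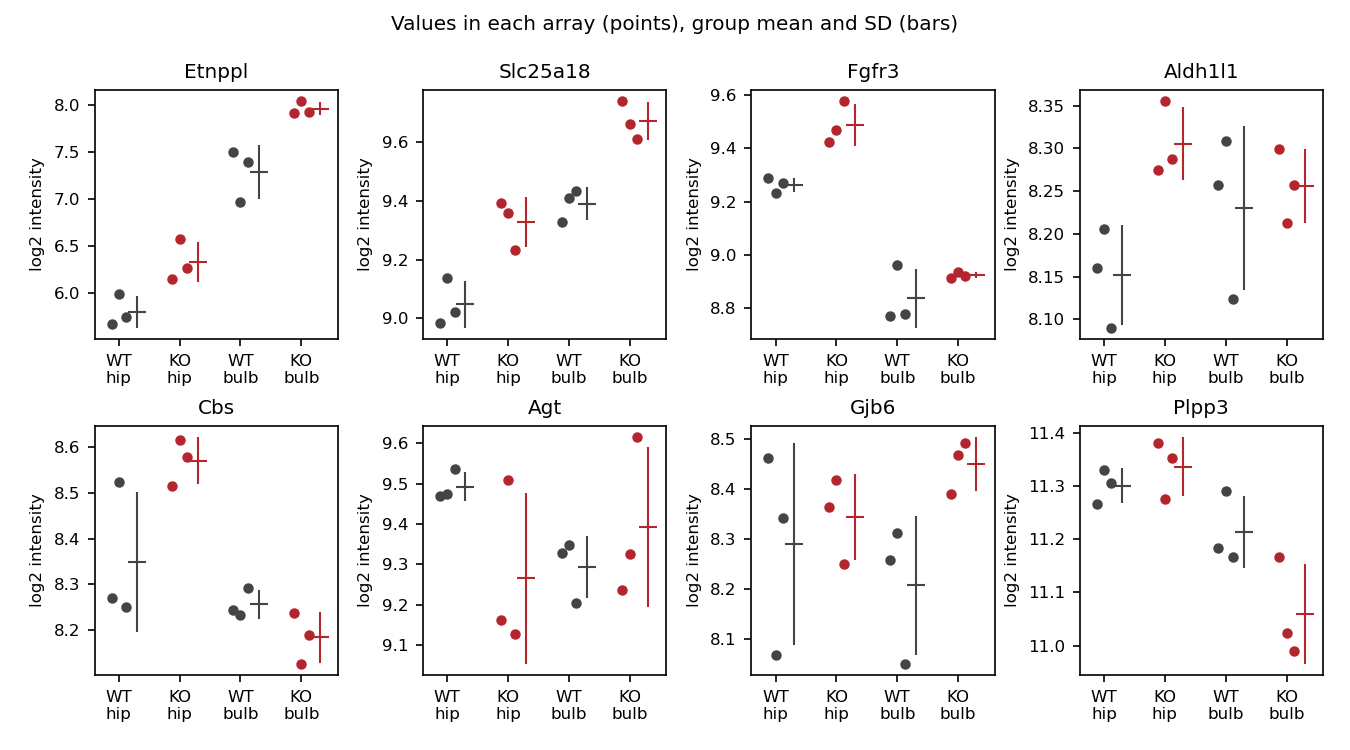
Log2 intensity (vertical axis) in each array for 8 astrocyte genes, with wild-type arrays in grey and knockout arrays in red for hippocampus (hip) and olfactory bulb (bulb); the bar beside the points is the group mean with its SD (n = 3). Etnppl and Slc25a18 separate by genotype in both tissues, while in hippocampus the arrays of Cbs and Agt overlap between genotypes.

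Water, ion and junction genes had hippocampal differences on both sides of 0, with 4 above and 3 below. Aqp4, the endfoot water channel, measured 9.13, 8.96 and 8.99 in wild type and 9.13, 9.09 and 8.99 in knockout. The difference was 0.040 with a 95% interval of -0.13 to 0.21. Gja1, the most abundant astrocyte connexin, measured 10.41, 10.40 and 10.51 in wild type and 10.47, 10.33 and 10.27 in knockout. The arrays overlapped and the difference was -0.079 (SE 0.071, adjusted p = 0.753), one of the 3 lowest among the members. Gjb6, the other astrocyte connexin of the list, differed by 0.053, the tight-junction gene Cldn10 by -0.079 and the bicarbonate cotransporter gene Slc4a4 by -0.025. Mlc1 and Hepacam, whose products form an adhesion complex at endfeet, differed by 0.071 and 0.11. The median of these 7 genes was 0.040, and 0 of 7 had an unadjusted p under 0.05.

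Among the 5 genes of glutamate and amino acid handling, Slc25a18 is given above. Cbs, the enzyme that takes homocysteine into transsulfuration, measured 8.27, 8.52 and 8.25 in wild-type hippocampus and 8.52, 8.62 and 8.58 in knockout hippocampus. Wild-type array 2 lay inside the knockout range, and the difference was 0.22 (SE 0.077, adjusted p = 0.456). Slc1a2, the main glutamate transporter of the forebrain, differed by 0.048, with a 95% interval of -0.093 to 0.19. Glul, which encodes glutamine synthetase, differed by -0.054 and Slc7a10, an exchanger of small neutral amino acids, by 0.076. The second probe set of Glul, given above, read -0.15 in the same comparison, also without passing.

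In energy, folate and lipid metabolism, Aldh1l1, an enzyme of the folate cycle widely used as an astrocyte marker, measured 8.16, 8.21 and 8.09 in wild-type hippocampus and 8.27, 8.36 and 8.29 in knockout hippocampus. The groups did not overlap, and the difference was 0.15 (SE 0.069, adjusted p = 0.545). The glycolytic aldolase gene Aldoc differed by 0.10, the acyl-CoA synthetase gene Acsbg1 by 0.069 and Ppp1r3c, whose product directs a phosphatase to glycogen, by -0.013. The lipid phosphatase gene Plpp3 and the lipase gene Pla2g7 differed by 0.036 and 0.034. The median of the 7 genes was 0.069, with 6 of 7 above 0.

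Of the receptors and intracellular signalling genes, the fibroblast growth factor receptor gene Fgfr3 measured 9.29, 9.23 and 9.27 in wild-type hippocampus and 9.42, 9.47 and 9.58 in knockout hippocampus. The groups did not overlap, and the difference was 0.23 (SE 0.071, adjusted p = 0.371). In the bulb Fgfr3 measured 8.77, 8.96 and 8.78 in wild type and 8.91, 8.93 and 8.92 in knockout, where wild-type array 2 was the highest of all 6. The receptor gene Gpr37l1 differed by 0.12 in hippocampus, Ndrg2, a cytoplasmic protein gene, by 0.069, the calcium-binding protein gene S100b by 0.059 and the neurotensin receptor gene Ntsr2 by -0.028.

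Secreted proteins held the lowest difference of the hippocampus. Agt, which encodes the precursor of angiotensin, measured 9.47, 9.47 and 9.53 in wild type and 9.16, 9.51 and 9.13 in knockout. Knockout arrays 4 and 6 lay below the wild-type arrays and knockout array 5 among them, and the difference was -0.23 (SE 0.11, adjusted p = 0.568). Itih3, a heavy chain gene of the inter-alpha-trypsin inhibitors, measured 8.27, 8.01 and 8.01 in wild type and 8.19, 8.38 and 8.32 in knockout. Its arrays overlapped, with a difference of 0.20 (SE 0.088, adjusted p = 0.537). Mfge8, which bridges phagocytes to dying cells, measured 9.94, 10.13 and 9.90 in wild type and 9.92, 9.86 and 9.92 in knockout, a difference of -0.091 (SE 0.098, adjusted p = 0.790) with overlapping arrays. The lipoprotein genes Apoe and Clu differed by 0.039 and 0.016. Chrdl1, an antagonist of bone morphogenetic proteins, differed by 0.14, the secreted protease gene Htra1 by 0.14 and the tissue factor gene F3 by 0.095.

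Over the 32 genes, 24 (75.0%) had a hippocampal difference above 0 and the median was 0.064, while 63.0% of all genes were above 0 with a median of 0.034. With each array centred on its median, 22 of 32 were above 0, against 49.4% of all genes. Arrays separated with knockout higher for 8 members, against 9.39% of all genes, and with knockout lower for 0, against 3.66%. The 8 were Slc1a2, Slc25a18, Slc7a10, Aldh1l1, Etnppl, Fgfr3, Ndrg2 and Chrdl1. With centring, 5 members separated as higher and 1 as lower, against 5.49% and 6.18% of all genes. Quantile normalization of the 12 arrays gave 24 of 32 above 0, against 60.9% of all genes. It separated 9 members as higher and 0 as lower, against 9.07% and 4.62% of all genes. The 95% intervals of all 32 differences lay between -0.46 and 0.82, inside a 2-fold change in either direction. In whole tissue, a difference in the number of astrocytes and one in RNA per astrocyte cannot be told apart.

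**Figure D2:**
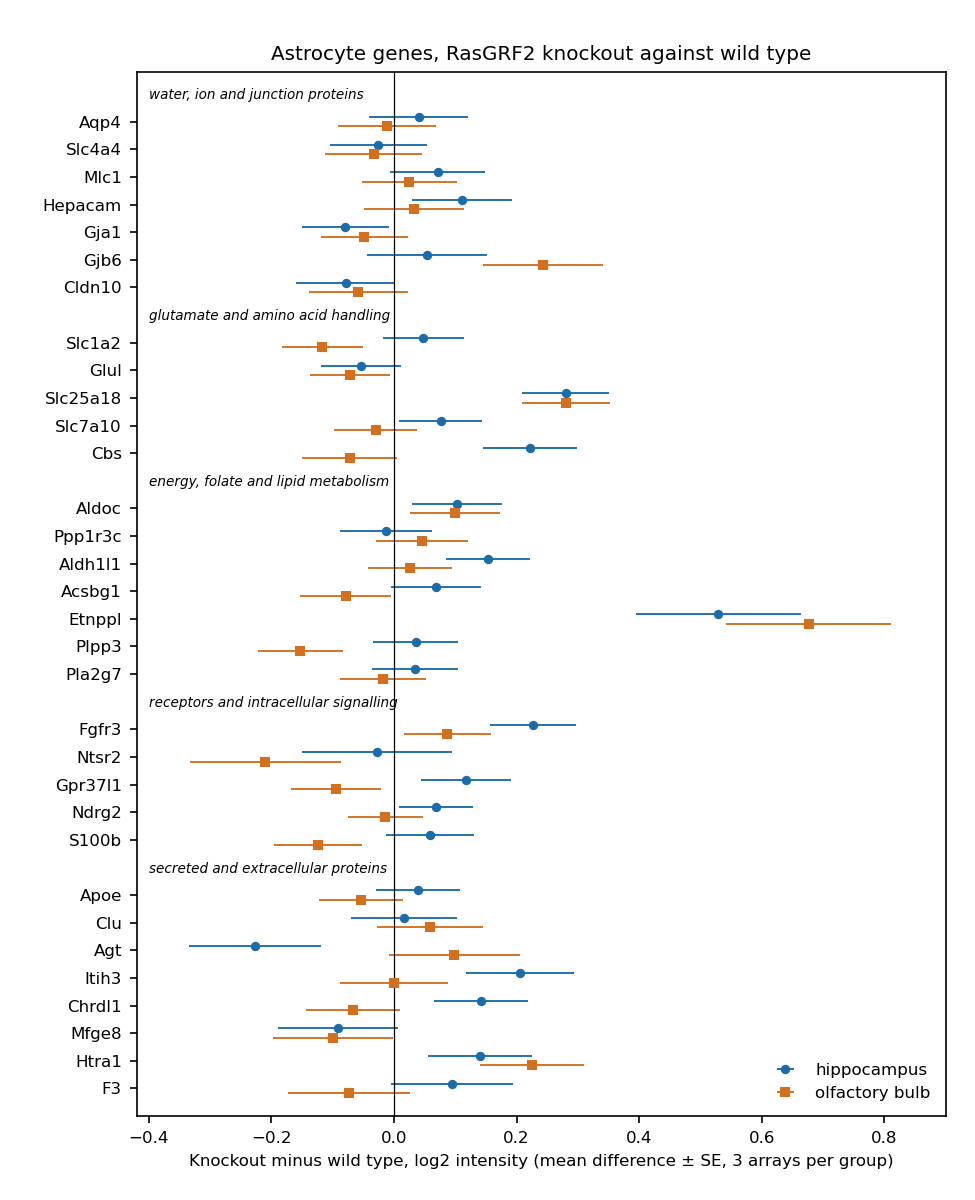
Knockout minus wild type in log2 intensity (horizontal axis) for each of the 32 astrocyte genes, grouped by role; blue circles are hippocampus, orange squares olfactory bulb, and lines are limma's SE (3 arrays per group). Etnppl lies farthest to the right in both tissues and Slc25a18 next in hippocampus and in bulb, and most other genes lie within 0.2 of 0.

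In the olfactory bulb the other 31 genes neither rose nor fell in the knockout. Of the 32, 5 had an unadjusted p under 0.05 (15.6%, against 11.3% of all genes): Etnppl, Slc25a18, Htra1 and Gjb6 were higher and Plpp3 was lower. Differences were above 0 for 12 of 32 (37.5%), against 44.5% of all genes. The median was -0.024 and that of all genes -0.016. Arrays separated with knockout higher for 4 members (Gjb6, Slc25a18, Aldoc and Etnppl), against 8.22% of all genes, and with knockout lower for 0, against 8.87%.

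Gjb6 measured 8.26, 8.31 and 8.05 in wild-type bulb and 8.39, 8.47 and 8.49 in knockout bulb. The groups did not overlap, and wild-type array 3 was the lowest. The difference was 0.24 (SE 0.098, adjusted p = 0.391), while the partner connexin gene Gja1 differed by -0.049. Htra1 measured 9.43, 9.55 and 9.31 in wild type and 9.52, 9.68 and 9.76 in knockout. Wild-type array 2 lay above knockout array 4, and the difference was 0.23 (SE 0.085, adjusted p = 0.352). Aldoc differed by 0.099 (SE 0.074, adjusted p = 0.633), a small separation of tightly grouped arrays.

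The 3 lowest differences of the bulb were in Ntsr2, Plpp3 and S100b. Ntsr2, the gene of the low-affinity neurotensin receptor, measured 10.25, 10.27 and 9.83 in wild type and 9.95, 9.81 and 9.96 in knockout. Wild-type array 3 lay with the knockout arrays, and the difference was -0.21 (SE 0.12, adjusted p = 0.546). Plpp3 measured 11.18, 11.29 and 11.17 in wild type and 11.17, 11.02 and 10.99 in knockout. The lowest wild-type array and the highest knockout array met at 11.17, and the difference was -0.15 (SE 0.069, adjusted p = 0.432). S100b measured 8.40, 8.26 and 8.37 in wild type and 8.23, 8.27 and 8.16 in knockout. The arrays overlapped, with a difference of -0.12 (SE 0.072, adjusted p = 0.540).

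The remaining bulb differences were small. Among water, ion and junction genes, Aqp4 differed by -0.012, Slc4a4 by -0.033, Mlc1 by 0.025, Hepacam by 0.032 and Cldn10 by -0.058. In glutamate and amino acid handling, Slc1a2 differed by -0.12, Glul by -0.072, Cbs by -0.072 and Slc7a10 by -0.030. The second probe set of Glul read -0.14 (SE 0.064) in bulb, also without passing. Of the metabolic genes, Acsbg1 differed by -0.079, Ppp1r3c by 0.045, Aldh1l1 by 0.026 and Pla2g7 by -0.018. Fgfr3 differed by 0.087, Gpr37l1 by -0.095 and Ndrg2 by -0.015. Of the secreted proteins, Agt differed by 0.099, Mfge8 by -0.10, F3 by -0.074, Chrdl1 by -0.067, Clu by 0.059 and Apoe by -0.054, and Itih3 had equal means in the 2 genotypes at 2 decimals (8.13). The 95% intervals of the 32 genes lay between -0.47 and 0.96.

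The knockout effect of no member differed between hippocampus and bulb (0 of 32, with 0.015% of all genes called, and 2 of 32 at an unadjusted p under 0.05, against 10.7% of all genes). Cbs had the highest difference of effects, 0.29 (SE 0.11, adjusted p = 0.392), from 0.22 in hippocampus and -0.072 in bulb. Its bulb values were 8.24, 8.23 and 8.29 in wild type and 8.24, 8.13 and 8.19 in knockout. Agt had the lowest and the largest in size, -0.33 (SE 0.15, adjusted p = 0.468), with bulb values of 9.33, 9.35 and 9.20 in wild type and 9.24, 9.33 and 9.61 in knockout. For Etnppl the difference of effects was -0.15 with a 95% interval of -0.55 to 0.26, and for Slc25a18 the interval was -0.22 to 0.22. Of the 32 genes, 16 had the same sign of knockout difference in both tissues, 10 of them higher and 6 lower in the knockout. Over all genes 63.0% were above 0 in hippocampus and 44.5% in bulb. The share of all genes with the same sign in both was not counted, so no trait of the members is read from this.

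**Figure D3:**
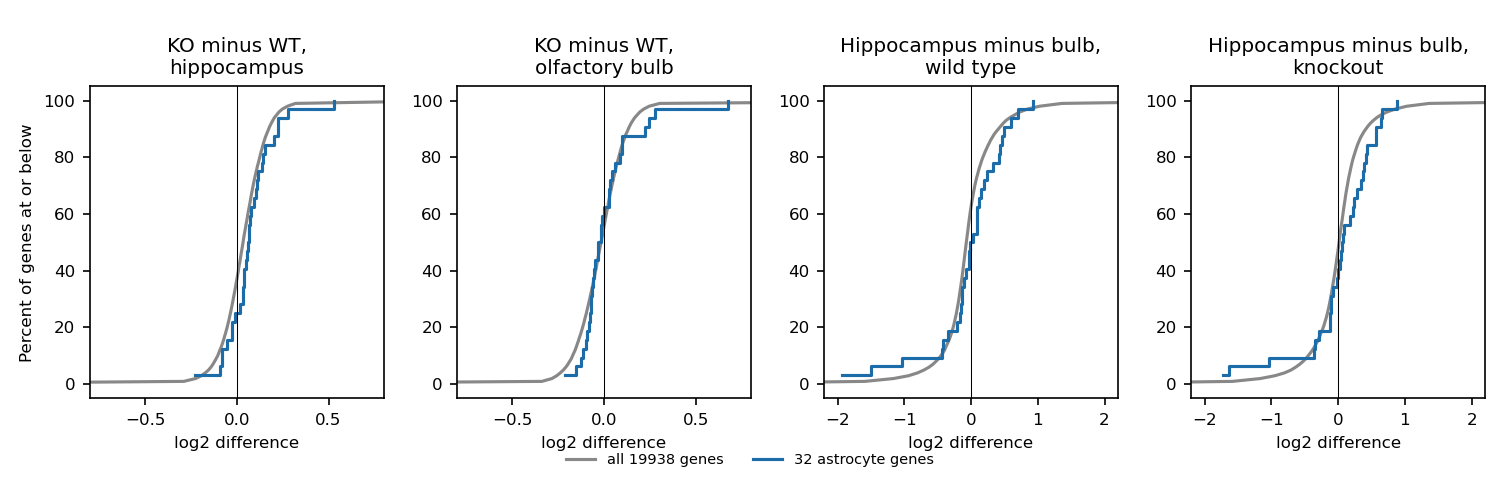
Percent of genes at or below each log2 difference (horizontal axis) for the 32 astrocyte genes (blue steps) and all 19938 genes (grey) in 4 comparisons. For knockout against wild type the steps follow the grey curve in the bulb and lie slightly to its right in hippocampus, and between tissues 3 genes stand far to the left.

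Between the tissues, astrocyte genes differed in both directions. In wild type, 16 of 32 were called between hippocampus and bulb, 9 higher and 7 lower in hippocampus, where 40.9% of all genes were called (17.5% higher and 23.4% lower). In knockout, 18 were called, 12 higher and 6 lower, against 39.1% of all genes (19.2% higher and 19.9% lower). Arrays of the tissues separated for 12 members as higher and 8 as lower in wild type, against 20.8% and 30.1% of all genes, and for 14 and 7 in knockout, against 24.2% and 24.7%. In both genotypes the same 9 were higher in hippocampus (Aldoc, Cldn10, Clu, Fgfr3, Htra1, Mfge8, Ppp1r3c, S100b and Slc1a2) and the same 6 lower (Acsbg1, Aqp4, Chrdl1, Etnppl, Slc25a18 and Slc4a4), as 30.6% of all genes were called in both with 1 sign. The balance of directions over all genes depended on scaling: centring each array on its median moved the median of all genes by 0.113 in wild type, from -0.071 to 0.042. The split of calls among the 32 then became 14 higher and 6 lower, against 24.6% and 14.5% of all genes. The largest differences listed next exceed that shift.

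Of water, ion and junction genes, Slc4a4 measured 10.81, 10.57 and 10.67 in wild-type hippocampus and 11.73, 11.74 and 11.70 in wild-type bulb. The tissues did not overlap, and hippocampus was lower by 2.06-fold, with a log2 difference of -1.04 (SE 0.079, adjusted p = 5.16e-08). In knockout the difference was -1.03. Aqp4 measured 9.13, 8.96 and 8.99 in wild-type hippocampus and 9.52, 9.37 and 9.44 in wild-type bulb, a difference of -0.42 (SE 0.080, adjusted p = 0.000595), and was lower in hippocampus in 6 of 6 animals. Cldn10 ran the other way, with 9.80, 9.69 and 9.97 in wild-type hippocampus and 9.11, 9.23 and 9.33 in wild-type bulb. Its difference was 0.59 (SE 0.081, adjusted p = 2.49e-05) and lay within 0.53 to 0.64 in the 6 animals, and a second probe set gave 0.51. Mlc1, Hepacam, Gja1 and Gjb6 differed by -0.15, -0.16, 0.12 and 0.083 in wild type, and none was called in either genotype.

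Of the genes of glutamate and amino acid handling, Slc1a2 measured 12.17, 12.17 and 12.18 in wild-type hippocampus and 11.68, 11.78 and 11.59 in wild-type bulb. The tissues did not overlap, and the difference was 0.49 (SE 0.066, adjusted p = 2.27e-05). In knockout the Slc1a2 arrays were 12.18, 12.21 and 12.27 in hippocampus and 11.60, 11.52 and 11.59 in bulb, a difference of 0.65. Slc25a18 was lower in hippocampus, by -0.34 (SE 0.071, adjusted p = 0.00122) in wild type and -0.34 in knockout, so the mitochondrial carrier and the plasma membrane transporter ran in opposite directions. Cbs was called in knockout (0.39 (SE 0.077, adjusted p = 0.000837)) and not in wild type (0.092), and the difference between these is the test of effects given above, which did not pass. Glul and Slc7a10 differed by -0.13 and -0.13 in wild type and were not called.

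Etnppl had the second largest tissue difference. Its hippocampal values lay below the array medians, and the effect of that low level on the size of the difference was not tested. In wild type the values given above make hippocampus 2.81-fold lower, with a log2 difference of -1.49 (SE 0.13, adjusted p = 3.25e-07). In knockout the difference was -1.64, and the range over the 6 animals was -1.77 to -1.30. Ppp1r3c, the glycogen-targeting subunit gene, measured 8.69, 8.72 and 8.77 in wild-type hippocampus and 7.99, 8.15 and 7.93 in wild-type bulb. The tissues did not overlap, and hippocampus was higher by 0.70 (SE 0.075, adjusted p = 1.98e-06). Aldoc was higher in hippocampus by 0.42 (SE 0.074, adjusted p = 0.000278) and Acsbg1 lower by -0.44 (SE 0.074, adjusted p = 0.000195). Plpp3 was called in knockout (0.28 (SE 0.069, adjusted p = 0.00486)) and differed by 0.087 in wild type. Its difference of effects, 0.19, did not pass (adjusted p = 0.496). Aldh1l1 and Pla2g7 differed by -0.078 and -0.020 in wild type and were called in neither genotype.

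Among receptors and signalling genes, Fgfr3 was higher in hippocampus by 0.43 (SE 0.071, adjusted p = 0.000155) in wild type and 0.57 in knockout, from the arrays given above. S100b measured 8.57, 8.53 and 8.67 in wild-type hippocampus and 8.40, 8.26 and 8.37 in wild-type bulb, a difference of 0.24 (SE 0.072, adjusted p = 0.0124). The S100b call ended without wild-type hippocampus array 3 (adjusted p = 0.0640) and without wild-type bulb array 2 (adjusted p = 0.0574). Ndrg2 was called in knockout (0.24 (SE 0.061, adjusted p = 0.00544)) and just missed in wild type (0.16 (SE 0.061, adjusted p = 0.0543)). Its difference of effects, 0.083, did not pass (adjusted p = 0.732). Gpr37l1 was lower in wild-type hippocampus by -0.21 (SE 0.074, adjusted p = 0.0296). In knockout it differed by -0.0028 (adjusted p = 0.982), and its difference of effects, 0.21, did not pass (adjusted p = 0.487). With centred arrays its wild-type adjusted p was 0.322. That p was 0.0652 and 0.109 without wild-type hippocampus array 2 or 3, and 0.0512 and 0.129 without wild-type bulb array 1 or 2. Ntsr2 differed by 0.036 in wild type and was called in neither genotype.

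Secreted proteins held both extremes. Chrdl1 measured 6.85, 6.68 and 6.80 in wild-type hippocampus and 8.80, 8.57 and 8.76 in wild-type bulb. The tissues stood far apart, and hippocampus was 3.81-fold lower, with a log2 difference of -1.93 (SE 0.077, adjusted p = 3.67e-11). The hippocampal values lay near the lowest array median over all probe sets, 6.82, and the effect of that level on the size of the difference was not tested. In knockout Chrdl1 measured 6.93, 6.93 and 6.90 in hippocampus and 8.72, 8.55 and 8.66 in bulb, a difference of -1.72. Clu measured 11.29, 11.38 and 11.40 in wild-type hippocampus and 10.26, 10.58 and 10.45 in wild-type bulb. Hippocampus was higher without overlap, by 1.91-fold or 0.93 (SE 0.086, adjusted p = 4.52e-07), and it was higher in 6 of 6 animals. Apoe, the other lipoprotein gene, differed by -0.032 in wild type and 0.061 in knockout, and was called in neither. Htra1 was higher in hippocampus by 0.46 (SE 0.085, adjusted p = 0.000399) and Mfge8 by 0.33 (SE 0.098, adjusted p = 0.0142). The Mfge8 call ended without wild-type hippocampus array 2 (adjusted p = 0.0681) and without wild-type bulb array 3 (adjusted p = 0.0777). Agt, Itih3 and F3 differed by 0.20, -0.032 and -0.10 in wild type and were not called.

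**Figure D4:**
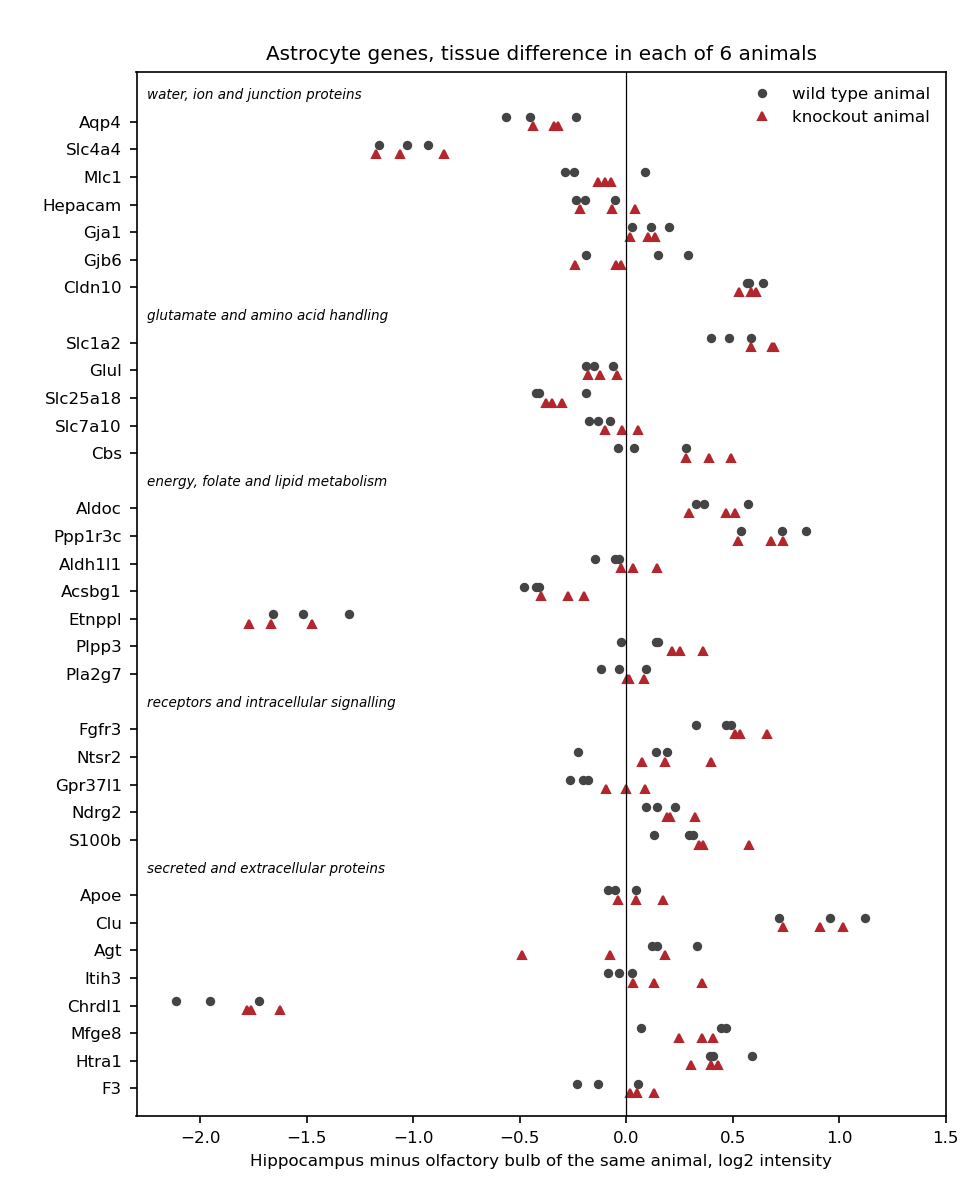
Hippocampus minus olfactory bulb in log2 intensity (horizontal axis) within each of the 6 animals for the 32 astrocyte genes, grouped by role; grey circles are wild-type animals and red triangles knockout animals, joined by the animal code. Chrdl1, Etnppl and Slc4a4 lie far to the left and Clu, Ppp1r3c and Cldn10 to the right in all 6 animals.

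When the tissues of each animal were joined by its code, 18 of 32 genes had the same sign in all 6 animals, against 42.5% of all genes. Gja1 was among them, with differences of 0.019 to 0.20, although it was not called. Mlc1, Hepacam, Gpr37l1 and Slc7a10 were higher in hippocampus in 1 of 6 animals, Gjb6 and Aldh1l1 in 2 and Apoe in 3.

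The median pooled within-group SD of the 32 genes was 0.084, against 0.11 for all genes. Their levels were also higher, with a median of 9.42 against 7.30, and 31 of 32 lay above the median gene. The SDs were not matched for level. Etnppl (0.20), Ntsr2 (0.18) and Agt (0.15) varied most and Ndrg2 (0.038) least. In wild-type bulb, array 2 was the highest of 3 for 23 of the 32 genes and array 3 the lowest for 18. For Etnppl array 2 was instead the lowest. The mean over the 32 genes in wild-type bulb spanned 9.76 to 9.87, and that range holds all 3 knockout bulb arrays. In hippocampus the 3 knockout arrays lay above the 3 wild-type arrays on that mean. With each array centred on its median they overlapped, at 9.81 to 9.85 in wild type and 9.84 to 9.92 in knockout. Quantile normalization of the 12 arrays kept them apart, at 9.75 to 9.78 in wild type and 9.84 to 9.86 in knockout.

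Other genes expressed in astrocytes, 61 of them outside the 32, were read from the same fit. In hippocampus 0 of 61 were called by limma (3 with an unadjusted p under 0.05, against 8.91% of all genes), with a median of 0.0062. In bulb 1 of 61 was called, against 0.411% of all genes. It was Id4, an inhibitor of basic helix-loop-helix factors. Id4 measured 8.30, 8.36 and 8.38 in wild type and 8.08, 8.03 and 7.90 in knockout. It fell, with a difference of -0.34 (SE 0.065, adjusted p = 0.0375). Whether the Id4 call holds without single arrays or with other scalings was not tested. A further 15 had an unadjusted p under 0.05, which makes 16 of 61 against 11.3% of all genes. Between the tissues of wild type, 17 of 61 were higher and 23 lower in hippocampus, against 17.5% and 23.4% of all genes. The lowest 4 were the GABA transporter gene Slc6a11 (-1.98), the glycine transporter gene Slc6a9 (-1.96), the fatty acid binding protein gene Fabp7 (-1.87) and the potassium channel gene Kcnj10 (-1.24). The highest 4 were the transcription factor gene Nfib (0.95), Hopx (0.78), the metallothionein gene Mt1 (0.77) and the protease inhibitor gene Timp4 (0.68). Fabp7 is also a marker of ensheathing glia.

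Marker lists of other cells were read in the same way. Beside them, 63.0% of all genes were above 0 in the knockout hippocampus, 8.91% had an unadjusted p under 0.05 and 0.256% were called. In hippocampus all 9 oligodendrocyte markers were above 0 in the knockout, with 0 called, 4 at an unadjusted p under 0.05 and a median of 0.24. Their mean ranged over 8.78 to 8.94 in wild type and 8.86 to 9.24 in knockout. All 6 ependymal markers were above 0, with 0 called, 4 at an unadjusted p under 0.05, a median of 0.21 and ranges of 6.24 to 6.46 and 6.53 to 6.68. Endothelial markers were below 0 for 7 of 7 (median -0.16, ranges 7.89 to 8.13 and 7.78 to 7.96), and markers of meninges were above 0 for 3 of 7 and below for 4, with a median of -0.44 and ranges of 7.56 to 8.16 and 7.52 to 7.58. In these lists 0 were called, and 0 of 7 and 2 of 7 had an unadjusted p under 0.05. Neurons (-0.024), microglia (0.021), oligodendrocyte precursors (0.021), pericytes and smooth muscle (-0.051), choroid plexus (0.070) and ensheathing glia (0.084), with these medians, had 0 called, and 1 marker each of microglia, pericytes and choroid plexus had an unadjusted p under 0.05. The part of these shifts in the hippocampal differences of the 32 genes was not tested. Of 9 reactive astrocyte genes 1 rose, the protease inhibitor gene Serpina3n, from 10.40, 10.17 and 10.20 in wild type to 11.22, 11.32 and 11.14 in knockout, a difference of 0.97 (SE 0.10, adjusted p = 0.000356), while Gfap, the intermediate filament of astrocytes, differed by -0.088 (SE 0.12, adjusted p = 0.834).

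In bulb none of these markers was called between genotypes by limma. Beside them, 11.3% of all genes had an unadjusted p under 0.05 in bulb. Oligodendrocyte precursor markers had a median of -0.16, 3 of 8 at an unadjusted p under 0.05 and means of 7.97 to 7.97 in wild type and 7.80 to 7.91 in knockout. Reactive astrocyte genes had a median of -0.12, with 4 of 9 at an unadjusted p under 0.05, and ranges of 7.46 to 7.63 and 7.43 to 7.49. The other medians were -0.069 for oligodendrocytes, -0.048 for ependyma, -0.097 for endothelium, -0.15 for meninges, -0.047 for neurons, 0.00090 for microglia, -0.11 for pericytes and smooth muscle, -0.075 for choroid plexus and -0.10 for ensheathing glia. An unadjusted p under 0.05 was found for 2 markers each of endothelium and pericytes, for 1 each of oligodendrocytes, meninges, neurons, microglia and ensheathing glia, and for 0 of ependyma and choroid plexus. Their part in the rise of Etnppl was not tested. Between tissues, 5 of 7 ensheathing glia markers were lower in wild-type hippocampus (median -0.91), against 23.4% of all genes. Their part in the tissue differences was not tested.

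**Figure D5:**
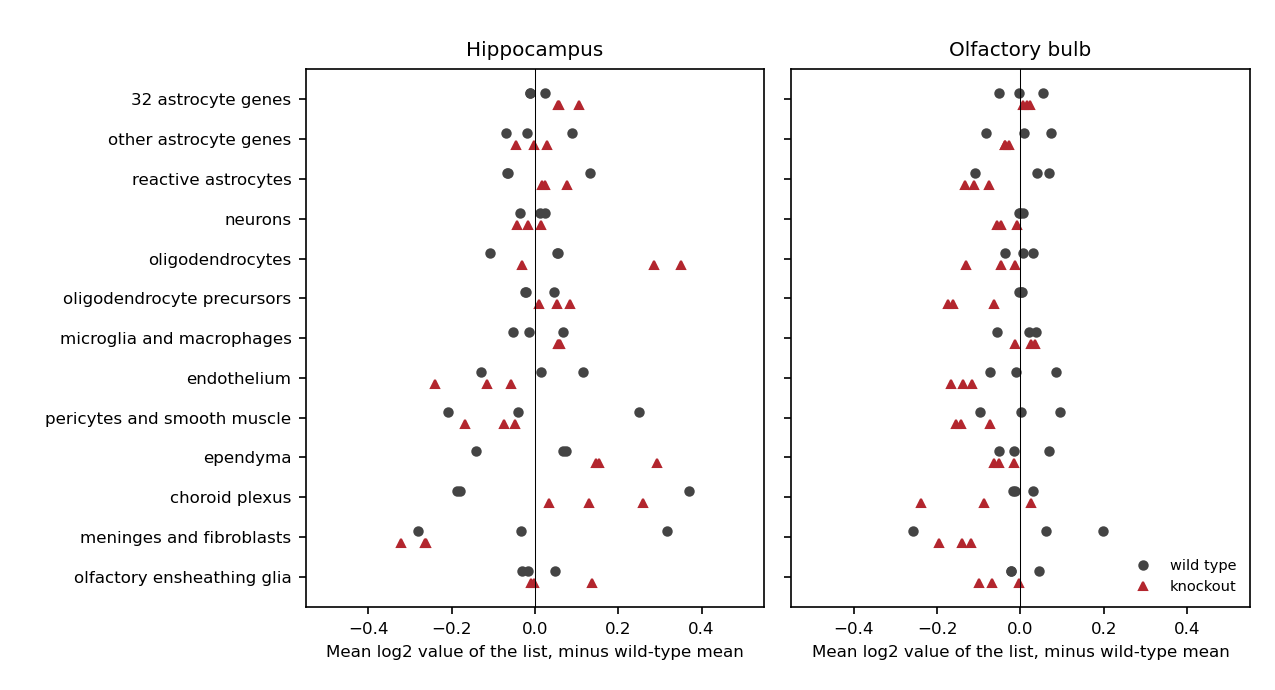
Mean log2 value of each marker list in each array, given as the difference from the wild-type mean of the same tissue (horizontal axis), in hippocampus (left) and olfactory bulb (right); grey circles are wild-type arrays and red triangles knockout arrays. In hippocampus the mean of the 32 astrocyte genes spreads less within each genotype than the lists of oligodendrocytes (9 genes), choroid plexus (6) and meninges (7). The spreads are not matched for list size, and the neuron list (12) also spreads little (SD 0.031 in wild type and 0.028 in knockout). For oligodendrocytes 2 of 3 knockout hippocampus arrays stand high.

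Of the 32 genes, 29 had RefSeq promoter windows, 38 in all, since several genes have more than 1 start and their windows can overlap. Aqp4, Clu and Chrdl1 had no window. Each motif was searched on both strands, and matches to different motifs could overlap. NFI sites (TTGGC) were in 52.6% of the members' windows and 46.7% of all windows, STAT sites (TTCNNNGAA) in 13.2% and 8.3%, and TATA boxes (TATAAA) in 15.8% and 13.6%. SOX sites (ACAATG) were in 1 of 38 windows (2.63%) and in 12.6% of all windows, cyclic AMP response sites (TGACG) in 5.26% and 20.8%, and AP-1 sites (TGANTCA) in 5.26% and 7.81%. These are counts of letters, with no test, and windows of 1 gene share sequence.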

How the data were processed

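For each array the authors deposited log2 values of probe sets, with RMA and oligo named in the submitters' processing notes. No source used here gives versions. RMA subtracts background, quantile normalizes arrays and summarises probes, which compresses differences near background. Total RNA was extracted with Trizol, fragmented and biotin-labelled, per the labels' protocols. Of 35556 probe sets, 21789 had 1 symbol, 1621 several, and 12146 were not listed in the annotation and are unnamed here; 19938 genes remained, 999 of them with more than 1 probe set. The number of arrays, 3 per group, limits the precision. Replicates differed with an SD of 0.212 to 0.297, so no array was a copy.

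Group means of all 12 arrays were fitted with limma 3.58.1 (lmFit, eBayes) (R 4.3.3) to the deposited log2 values, with Benjamini-Hochberg adjustment over all genes at 0.05, and the script was tested on simulated data. Fold changes are antilogs of the log2 differences. The members and the gene lists were chosen with earlier results of these data known. Named with values in every array were members past the threshold in a genotype comparison, the 3 largest differences in each direction, and at least 1 member of each role between tissues; of other lists, those past the threshold, the 4 largest between tissues and up to 2 markers. Of 154 entries in the other lists, 148 were found. Tissues of an animal were joined by the animal code in the labels, which for 2 wild-type animals disagrees with the number in the title. Deviations of arrays that share a code correlated between -0.26 and 0.12, and the random block by animal had a consensus correlation of -0.070. Alternatives were the 2 blocks, other scalings, filters, weights and leaving out each array.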

Additional observations from a re-analysis of the deposited data

How the results depend on the processing

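For 46 chosen single-gene differences, 35 of them called, up to 16 alternatives gave 732 values, of which 714 kept their direction and their side of the threshold, 17 missed the threshold, 1 passed it and 0 reversed. Over all 32 genes, alternatives also added calls between tissues: Agt, Cbs, Gja1, Glul, Ndrg2 and Plpp3 in wild type, and Gja1 and Itih3 in knockout. The animal code as a random block gave 0 calls among the 32 genes in hippocampus and 1 in bulb between genotypes, 0 for the difference of effects, and 16 and 18 between tissues in wild type and knockout, and the block by the number in the title gave the same counts, so the pairing changed no call. In bulb the count of 1 became 0 with only the bulb arrays, with quantile normalization of the 12 arrays, with every probe set tested, and with genes above the median mean level only, which leaves out Etnppl and tests 31 members. Leaving out 1 array gave 0 to 1. In hippocampus array weights gave 1 call, Slc25a18 (adjusted p = 0.00993), with a weight of 4.31 for knockout array 4 and of 0.54 and 0.47 for knockout arrays 5 and 6. Centring each array on its median gave median differences of 0.029 for hippocampus between genotypes, 0.022 for the difference of effects, 0.12 between tissues in wild type and 0.13 in knockout, where quantile normalization gave 0.10. Leaving out 1 array moved the wild-type tissue median over -0.077 to 0.061, so its sign is not settled, and gave 14 to 16 calls. With quantile normalization 2 of 32 members, instead of 0, had bulb arrays that separated as lower in the knockout, against 8.86% of all genes. For the other medians and counts of calls not named here, each alternative stayed within the spread of the replicates or within 1.5 times. With 3 arrays per group the SE of a member's genotype difference was 0.061 to 0.13, and the cause of the changes was not tested.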

Other observations

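The genes beside Etnppl and Slc25a18 were read after the data were seen, 5 on each side by the order of the RefSeq gene table. None of the 10 neighbours of Etnppl was called by limma between genotypes (1 had an unadjusted p under 0.05 in each tissue), and their differences ran from -0.13 to 0.26 in hippocampus and from -0.38 to 0.11 in bulb, where Etnppl itself rose by 0.68. None of the 10 neighbours of Slc25a18 was called either (0 in hippocampus and 1 in bulb had an unadjusted p under 0.05). Their differences ran from -0.11 to 0.092 in hippocampus and from -0.15 to 0.41 in bulb. The highest of these, 0.41, was Cecr2, a chromatin factor gene, with an adjusted p of 0.0806.

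A pair of other astrocyte genes had bulb differences near the threshold without passing it. The chemokine gene Cxcl14 measured 8.85, 9.01 and 8.62 in wild-type bulb and 9.14, 9.23 and 9.24 in knockout bulb, a difference of 0.38 (SE 0.089, adjusted p = 0.104), and 0.0079 (SE 0.089, adjusted p = 0.984) in hippocampus. The homeodomain protein gene Hopx measured 8.06, 8.19 and 8.02 in wild-type bulb and 7.68, 7.90 and 7.73 in knockout bulb, a difference of -0.32 (SE 0.079, adjusted p = 0.122), and 0.035 (SE 0.079, adjusted p = 0.912) in hippocampus. Both were chosen after their values were seen, and their differences of effects between the tissues had adjusted p-values of 0.382 and 0.375.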
